A study of Mus musculus with 2 samples.

Results

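N6-methyladenosine (m6A) sites of mouse chromosome 11 were taken from 2 lists of sites mapped in testis RNA of control mice at 12 days post-partum. Every line with chromosome 11 in its first field was kept, and lines that repeated a start and strand were merged. This left 622 distinct sites of 7019 in replicate 1 and 621 of 7182 in replicate 2, or 1099 distinct positions in either list. The rule used the chromosome alone, so strand, spacing, grouping and recurrence between replicates were not used to choose the sites.

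The sites come from miCLIP, a crosslinking assay in which an antibody to m6A is fixed to RNA and leaves mutations or truncations in the cDNA at or next to the methylated base. The labels describe the animals of both libraries only as control, with no allele or transgene, and name the backgrounds B6D2F1, DBA2 and C57BL6 for the study without assigning them to libraries. Separate animals or pools are not named for the replicates, so differences between the lists may be technical. Testes of conditional Mettl3 knockout mice, which the series text also names, were not analysed here. All positions are central bases of listed intervals of 5 nt, counted from 1 on mm9.

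m6A is laid down on nascent RNA by a complex in which METTL3 is the catalytic subunit and METTL14 its partner, mostly within the short DRACH context. The mark is often found near stop codons and in long internal exons, and proteins of the YTH family bind it and influence splicing, translation and decay of the RNA. In the mouse testis it has been studied for its part in the differentiation of spermatogonia and in meiosis, which the first wave of germ cells enters at about this age. Chromosome 11 is known as a gene-rich chromosome that carries, among others, the Hoxb cluster and Brca1. Gene density was not measured here, no site was assigned to a gene, and the sequence under the sites was not analysed here, so what follows describes where the sites lie and how they recur. Likewise, the labelled tissue was not checked against marker genes.

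The lists hold positions without a score, and the read depth behind a site is unknown. On chromosome 11 the sites stood on 671 lines in replicate 1 and 655 lines in replicate 2. In RNA from a whole tissue, fewer cells of a type and less RNA per cell cannot be told apart, and neither can be told from a lower methylation of the base when a site is missing from a list.

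Sites ran along chromosome 11 from 3029287 to 121478778. Counted from the chromosome start to the last site of each list, the density was 5.13 sites per Mb in the first list and 5.11 in the second. In steps of 20 Mb from the chromosome start, the first and second steps were the sparsest, at 2.83 ± 0.0354 and 2.40 ± 0.0707 sites per Mb (SD, n = 2). The first of them includes the part of the chromosome before the first site. The next step, from 40 to 60 Mb, held 5.55 ± 0.636 sites per Mb, and the step from 60 to 80 Mb held 7.25 ± 0.354, with 150 sites in replicate 1 and 140 in replicate 2. From 80 to 100 Mb the density was 5.35 ± 0.424, within the spread between replicates of the 40 to 60 Mb step. From 100 to 120 Mb it was 6.65 ± 0.495 sites per Mb. The last 2 bins, 120 to 122 Mb, held 21 sites in each replicate. The distal part of the chromosome was therefore denser than the first 40 Mb in both lists.

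**Figure D1:**
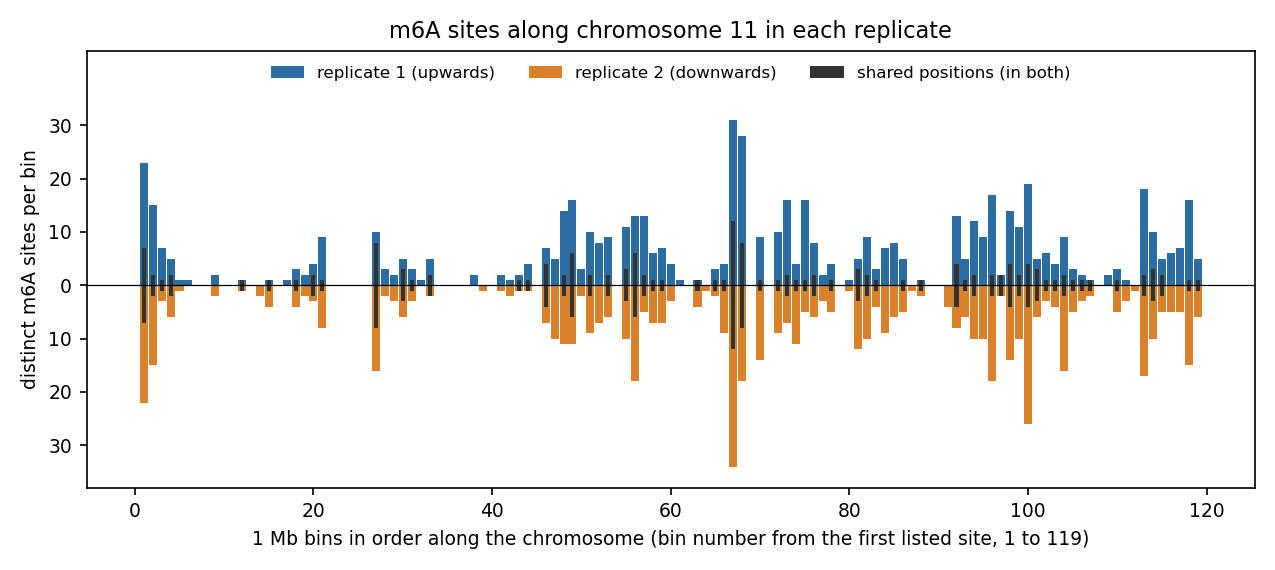
Distinct m6A sites per 1 Mb bin of chromosome 11, with the bins in chromosomal order on the x axis and site counts on the y axis, replicate 1 upwards, replicate 2 downwards and shared positions in the dark inner bars. The tallest bars of both replicates, 31 and 34 sites, belong to the same bin, and the early bins hold long stretches without a site.

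Long stretches without any site separated the occupied parts. The longest ran over 5.25 Mb, from 23795112 to 29047015, and the next over 4.86 Mb, from 35634731 to 40492980. A further 3.37 Mb from 8334391 to 11701025 and 3.22 Mb from 90506025 to 93727814 had no site on either strand in either list. The stretches after the longest were named after their values were seen. Of the 119 bins of 1 Mb between the first and the last site, 25 had no site. Each replicate had a site in 88 bins, and 82 bins had a site of each. The 12 remaining occupied bins, 6 per replicate, were thinly filled, with at most 4 sites.

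Bin by bin, the replicates placed similar numbers of sites. The median was 3 sites per bin in both, and 69 of the 94 occupied bins differed by at most 2 sites between replicates, 15 of them by 0. Bins with at most 2 positions could not differ by more. Across the 119 bins, which share transcripts and are not replicates, Pearson's r between the counts was 0.893 and Spearman's rho was 0.910. The 119 include the 25 bins without a site, which enter as equal counts of 0. Shared positions enter both counts, and with them left out the values were 0.823 and 0.843. Without the 69 to 70 Mb bin the Pearson correlation was 0.873 with all sites and 0.805 with unshared sites. The sites were unevenly spread over the bins: 19 bins held at least 50% of the replicate 1 sites and 20 bins at least 50% of the replicate 2 sites.

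**Figure D2:**
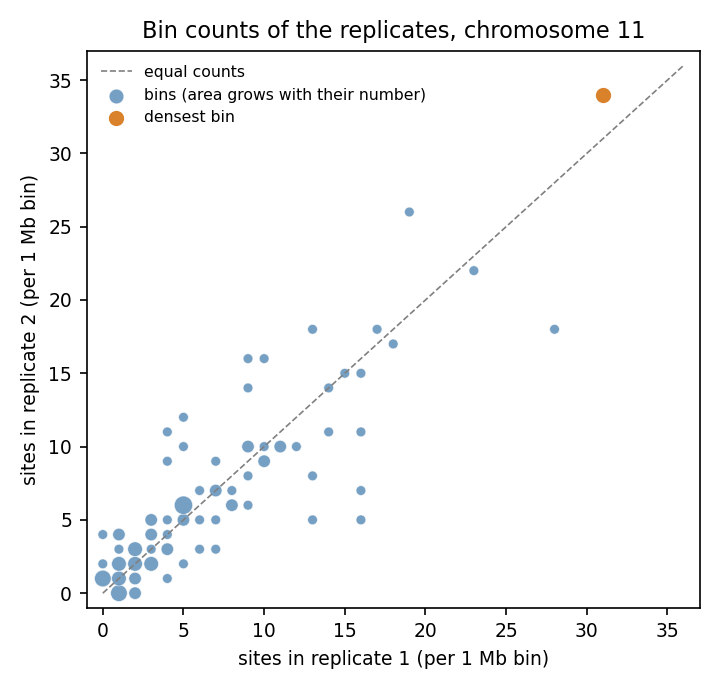
Site counts per occupied 1 Mb bin of chromosome 11 in replicate 1 (x axis) and replicate 2 (y axis), with a dashed line for equal counts and larger points where several bins coincide. Most of the 94 bins lie near the line, and the bin with 31 and 34 sites stands at the upper right.

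To see whether any bin departed from this agreement, sites found in 1 replicate only were compared between the lists with 2-sided Fisher's exact tests, bin against the rest of the genome, with Benjamini-Hochberg adjustment over the 1727 occupied bins of all chromosomes. On chromosome 11, 0 of 94 bins passed an adjusted p of 0.05, against 0.0% of all bins. At an unadjusted p of 0.05, 3 of 94 bins passed, and 24 of all 1727 bins, or 1.39%, did. Bins with very few sites cannot reach that p, so these counts are not on a like basis. Counting empty bins too, chromosome 11 had 9.01 positions per bin, against a median of 4.36 on the other chromosomes. The Fisher's exact tests compare 2 libraries and hold few sites per bin. The lowest p belonged to the bin from 77 to 78 Mb, with 16 sites in replicate 1, 5 in replicate 2 and 1 shared (Fisher's exact test, 2-sided, p = 0.0107, adjusted p = 1.0). The others were 59 to 60 Mb, with 13 and 5 sites (p = 0.0326, Fisher's exact test), and 75 to 76 Mb, with 16 and 7 sites (p = 0.0386, Fisher's exact test), and all 3 had more sites in replicate 1. These 3 bins were named after their values were seen.

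The 5 bins with the most positions were 69 to 70, 102 to 103, 3 to 4, 70 to 71 and 98 to 99 Mb. Together they held 118 sites in each replicate, or 18.97% of the replicate 1 sites and 19.0% of the replicate 2 sites of the chromosome. The bin from 69 to 70 Mb had 31 sites in replicate 1 and 34 in replicate 2, with 12 shared. The adjoining bin from 70 to 71 Mb had 28 and 18 sites with 8 shared, a larger gap between replicates than that of its neighbour. The bin from 102 to 103 Mb, with 19 and 26 sites, shared 4 positions. By contrast, the bin from 3 to 4 Mb, at the proximal end of the listed sites, had 23 and 22 sites with 7 shared. The bin from 98 to 99 Mb had 17 and 18 sites with 2 shared, and the bin from 115 to 116 Mb, with 18 and 17 sites and 2 shared, had the same number of positions, 33, and was named after its values were seen.

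Bins with similar site counts thus differed in how many exact positions recurred. The bin from 29 to 30 Mb had 10 sites in replicate 1 and 16 in replicate 2, of which 8 were shared, or 44.4% of its 18 positions. The bin from 120 to 121 Mb had more sites, 16 and 15, but shared 1 of 30 positions, or 3.33%. The bin from 97 to 98 Mb had 9 and 10 sites and shared 0 of 19. Of the 44 bins with 10 or more positions, 7 had no shared position. Bins for these contrasts were picked after their values were seen, and no test was made between them.

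The high density of chromosome 11 was then split into the share of bins with a site, the groups per such bin and the positions per group, over both lists joined. A group joins neighbouring sites of 1 strand wherever the step from site to site does not exceed 1 kb. Of the 122 bins from the chromosome start, 77.0% had a site, below chromosomes 9 and 19 at 77.4% and above a median of 65.3% over the other 18 autosomes and the X chromosome. In occupied bins there were 8.06 groups per bin on chromosome 11, against a median of 4.81 and a highest value of 7.15, on chromosome 17, among the others. Positions per group were 1.45, at rank 5 of 20 chromosomes, and the other values ran from 1.32 on chromosome 16 to 1.53 on chromosome 17. Within each list, groups were divided by all bins, with or without a site, so the share of occupied bins enters too. Chromosome 11 then had 3.99 and 4.04 groups per bin. The highest values elsewhere were 2.89, on chromosome 17 in replicate 1, and 3.27, on chromosome 19 in replicate 2. Occupied bins made up 72.1% on chromosome 11 in both lists, 57.3% on chromosome 17 in replicate 1 and 72.6% on chromosome 19 in replicate 2. With the 69 to 70 Mb bin left out, chromosome 11 still had 7.75 groups per occupied bin and 1.45 positions per group. Chromosome 11 was known to be the densest when it was chosen, so these ranks are a description with no test. They place the excess in the number of separate groups per Mb rather than in the size of the groups.

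**Figure D3:**
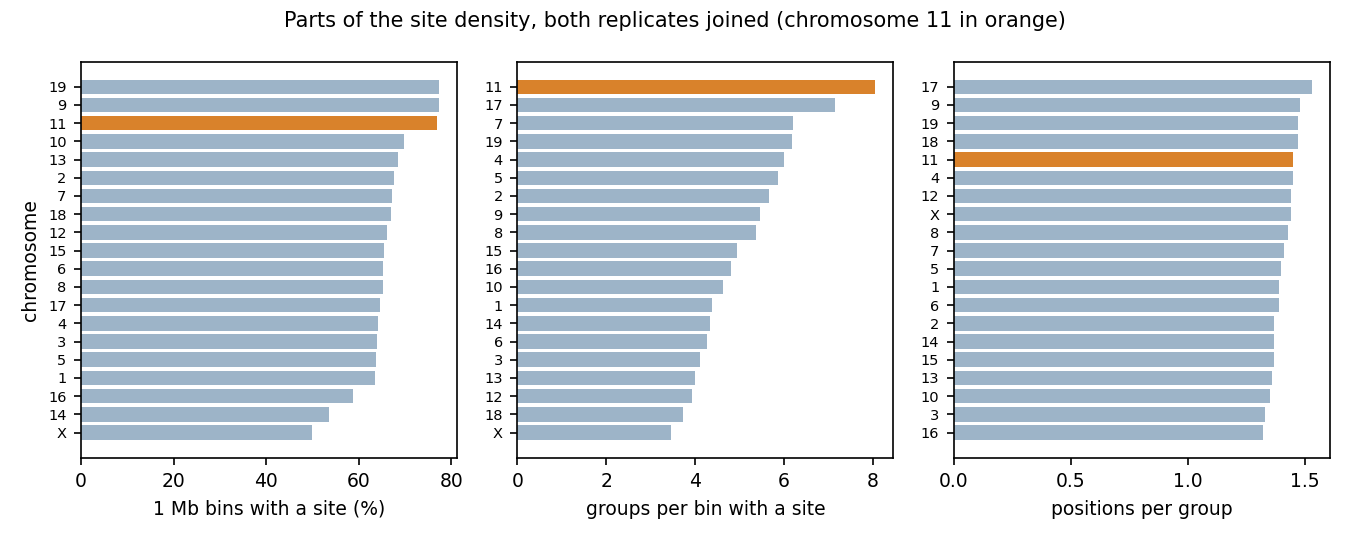
The share of 1 Mb bins with a site (left), same-strand groups per bin with a site (middle) and distinct positions per group (right) for 19 autosomes and the X chromosome, in order of value, with both replicates joined and chromosome 11 in orange. Chromosome 11 leads the middle panel with 8.06 groups and stands at 77.0% and 1.45 in the others.

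Sharing, strand, same-strand neighbours, repeated lines and groups found by both replicates were tested between chromosomes. Chromosome 11 was compared with all other chromosomes together, with chromosome 17 and with chromosome 7, in 27 Fisher's exact tests, 2-sided, of these 5 properties. With Benjamini-Hochberg adjustment over the 27 tests, 0 passed 0.05, and 3 passed an unadjusted 0.05. Sites of a transcript are not independent, and these tests cover counting error only.

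The replicates shared 144 positions of chromosome 11, which was 23.2% of its sites in each list, with 95% Wilson intervals of 20.01 to 26.6% and 20.04 to 26.7%. Over the whole genome the shares were 24.0% in replicate 1 and 23.5% in replicate 2. Against all other chromosomes, the odds ratio of recurrence was 0.949 in replicate 1 (95% interval 0.776 to 1.16; Fisher's exact test, p = 0.623, adjusted p = 0.934). In replicate 2 it was 0.983 (0.803 to 1.198). Chromosome 7 had the higher share, 28.4% in replicate 1 and 28.03% in replicate 2. The odds ratio of chromosome 11 against it was 0.7615 in replicate 1 (0.578 to 1.003; Fisher's exact test, p = 0.0484, adjusted p = 0.435) and 0.775 in replicate 2 (0.589 to 1.02; p = 0.0664, Fisher's exact test). The 144 shared positions enter both replicates' tests.

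Grouping within 1 kb was likewise close to that of other chromosomes. A same-strand neighbour from the same list within 1 kb was present for 36.7% of the chromosome 11 sites in replicate 1 and 35.3% in replicate 2, and for 34.8% and 33.0% of the sites of the whole genome. The odds ratios against all other chromosomes were 1.09 (0.917 to 1.30) and 1.12 (0.936 to 1.33). Within 100 nt, 12.4% and 13.7% of the chromosome 11 sites had such a neighbour, with a mean of 13.0% ± 0.925 (SD, n = 2). On all other chromosomes the shares were 15.4% and 12.6%. Chromosome 11 was thus lower in replicate 1 and higher in replicate 2, which was not tested. Joined over both lists, 212 of 758 groups of chromosome 11, or 27.97%, held a site of each replicate, against 27.3% of all groups of the genome (odds ratio against all other chromosomes 1.04, 0.873 to 1.23).

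Sites were split almost evenly between strands over the whole chromosome, with 303 of 622 on the plus strand in replicate 1 and 325 of 621 in replicate 2. These shares of 48.7% and 52.3% compare with 50.7% and 52.1% over the genome. In replicate 2 the plus share was above the 45.1% of chromosome 17 (p = 0.0249, Fisher's exact test) and the 46.02% of chromosome 7 (p = 0.0333, Fisher's exact test), and both had an adjusted p of 0.435. The strands alternated along the chromosome. Taken in order, the 758 groups formed 282 runs on 1 strand, 114 of them a single group, with a median of 2 groups.

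Within bins the split was often uneven. Of the 44 bins with 10 or more positions, 9 had at least 80% of them on the plus strand, 6 had at least 80% on the minus strand and 29 lay between, while 0 had all positions on 1 strand. The bin from 100 to 101 Mb had 2 of 24 positions on the plus strand, and the bin from 116 to 117 Mb had 2 of 17. The bin from 75 to 76 Mb had 18 of 21 positions on the plus strand and the bin from 29 to 30 Mb had 16 of 18. From 100 to 101 Mb, replicate 1 had 12 minus and 2 plus sites and replicate 2 had 13 and 1. The bins of this paragraph were named for their strand counts over the joined lists, which are therefore given with no test. So uneven a joined split fixes the direction in each list in advance, so it is no measure of agreement between replicates.

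The run with the most positions lay on the minus strand from 100320787 to 101160352. It held 24 positions in 16 groups, 13 sites of replicate 1 and 15 of replicate 2, with 4 shared. Another minus run, from 4960687 to 5616684, held 19 positions in 9 groups, but 15 were listed by replicate 1 and 7 by replicate 2. On the plus strand, 14 groups with 18 positions followed each other from 98316476 to 98822038. Many small groups make up these runs, in contrast to the plus run from 55313125 to 57873247, which held 17 positions in 5 groups. These runs were named after their values were seen.

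Joining the lists gave 758 groups on chromosome 11, of which 558 were a single position. Of these single positions, 77 were shared, 239 were listed by replicate 1 only and 242 by replicate 2 only. The 200 groups with more than 1 position held 541 positions, 49.2% of all, and their median span was 353.5 nt, from 4 to 2122 nt. Sites of both replicates stood in 135 of these 200 groups, or 67.5%. A group with more positions has more chances of holding a site of each. Of all 212 groups with a site of each replicate, 135 had an exact shared position, but 77 of those were single positions, shared by definition. The groups without a shared position, also 77, all came from the 135 groups of more than 1 position with a site of each replicate. In most of those 135 groups, the replicates thus marked the same stretch at different bases. Of joined positions, 13.8% were shared among single ones (11.2 to 16.9%), 12.3% in pairs (8.69 to 17.1%) and 12.5% in groups of 3 or more (9.21 to 16.6%), with overlapping intervals. A shared position counts once in a group, so group size and sharing are not independent. By same-strand neighbours within 1 kb in a site's own list, 25.4% (replicate 1) and 23.6% (replicate 2) of sites without one were shared. With a neighbour the shares were 19.3% and 22.4%, and the intervals overlapped in both lists.

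**Figure D4:**
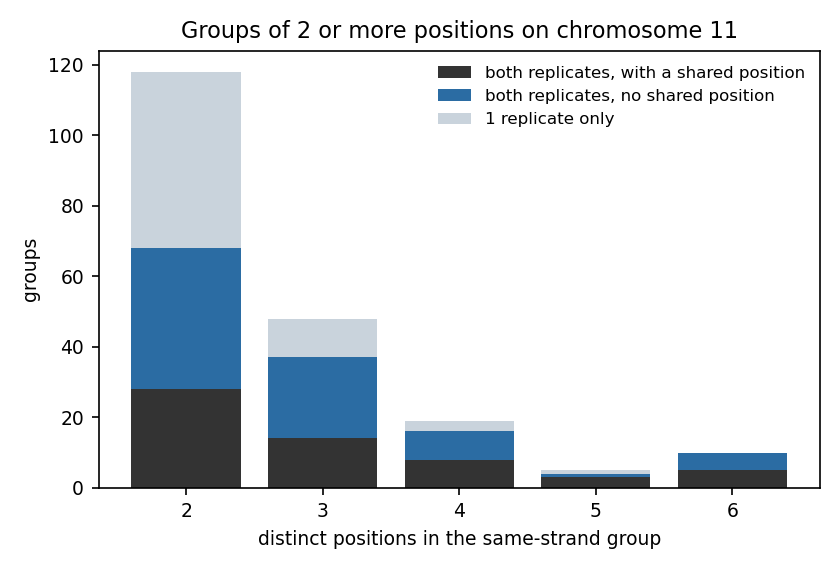
Number of same-strand groups of chromosome 11 (y axis) by the number of distinct positions they hold (x axis, 2 to 6), both replicates joined, split by whether both replicates have a site there and whether a position is shared. All 10 groups of 6 positions hold sites of both replicates, and 5 of them have no shared position.

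The largest groups held 6 positions, and 10 groups reached that size. The first 5 in order of shared positions were spread over the chromosome. On the plus strand from 29607049 to 29608664, replicate 1 had 5 sites and replicate 2 had 4, and 3 were shared, at 29607135, 29607253 and 29607796. The group on the plus strand from 83318228 to 83318573 was compact, with 6 positions in 345 nt, of which replicate 2 listed 5 and replicate 1 listed 2. Its shared position was 83318372. On the plus strand from 94811834 to 94813501, replicate 1 had 5 sites and replicate 2 had 2, with 94812829 in both.

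The only minus-strand group among these 5 ran from 96680767 to 96681442. Replicate 1 had 5 sites there, 2 of them on several lines, and replicate 2 had 2, and they shared 96680986. On the plus strand from 112646941 to 112647777, replicate 2 had 5 sites and replicate 1 had 2, which stood 9 nt apart at 112647460 and 112647469, the latter shared. In 4 of these 5 groups the lists were thus unbalanced, 5 sites against 2, in either direction. The other 5 groups of 6 positions had no shared position, as on the plus strand from 54922485 to 54924362, where each replicate listed 3 sites, an example picked after its values were seen.

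Sites that found no exact match were often near a site of the other list. Replicate 1 had 478 such sites, and for 34.5% of them (30.4 to 38.9%) the other list held a same-strand site at most 1 kb away. Replicate 2 had 477, and for these the share was 31.9% (27.8 to 36.2%). On all other chromosomes these shares were 34.0% and 31.9%. The median distance from an unmatched site to the nearest same-strand site of the other list was 4000 nt in replicate 1 and 5512 nt in replicate 2. At the far end, 98 and 124 unmatched sites had no counterpart within 100 kb. At the near end, 9 and 10 unmatched sites lay 4 to 10 nt from a site of the other list, and 0 lay 1 to 3 nt away. Over both lists, 24 same-strand pairs of positions were 4 to 10 nt apart, 104 pairs 11 to 100 nt and 397 pairs 101 to 1000 nt.

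Positions that a list repeats on several lines were about as frequent on chromosome 11 as elsewhere, with 43 in replicate 1 (6.91% of its sites, against 6.87% over the genome) and 32 in replicate 2 (5.15%, against 6.47%). What a repeated line stands for is not given in the sources used here. In replicate 2, positions on 2 lines were shared in 16 of 30 cases, or 53.3% (36.1 to 69.8%), against 21.4% of positions on 1 line (18.3 to 24.9%), and these intervals did not overlap. In replicate 1 the shares were 27.03% on 2 lines (15.4 to 42.98%) and 22.3% on 1 line (19.1 to 25.8%), which could not be told apart at this number of sites. On the other chromosomes, positions on 2 lines of replicate 1 were shared in 41.2% of cases (36.5 to 46.1%), and those of replicate 2 in 38.6% (33.97 to 43.5%). Positions on 1 line were shared there in 22.6% (21.6 to 23.7%) and 22.1% (21.1 to 23.2%), with no overlap of intervals in either list. For positions on 2 lines, chromosome 11 was thus below the other chromosomes in replicate 1 and above them in replicate 2, with overlapping intervals in both. Whether chromosome 11 differs from the other chromosomes in this was not tested.

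In both lists the number of lines reached 3 at most on chromosome 11. Replicate 1 had 6 such positions, and 5 of them were also listed by replicate 2. The plus-strand position 70476015 and the minus-strand position 108872958 stood on 3 lines in both lists. The minus-strand positions 55208923 and 90053096 stood on 3 lines in replicate 1 and 2 in replicate 2, and 99334050 on 3 lines and 1. The exception, 77350840 on the minus strand, was on 3 lines in replicate 1 and was not listed by replicate 2. It lies in the bin from 77 to 78 Mb, where replicate 1 had 16 sites and replicate 2 had 5. Apart from 55208923, which lay in a group of 4, each of these positions was alone within 1 kb on its strand.

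The bin from 69 to 70 Mb was described site by site because it held the most positions, so its counts are not a test of anything. Its 31 sites in replicate 1 and 34 in replicate 2 made 53 positions, 4.98% and 5.48% of the chromosome 11 sites of each list. The 12 shared positions were 38.7% of its replicate 1 sites (23.7 to 56.2%) and 35.3% of its replicate 2 sites (21.5 to 52.1%), and 8.33% of all shared positions of the chromosome. These intervals include the chromosome's 23.2% in replicate 2 and lie just above it in replicate 1.

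Most of these positions lay on the minus strand, 19 of 31 in replicate 1 and 24 of 34 in replicate 2. The 53 positions formed 37 groups, of which 26 were single positions and 4 held 3 or more. The bin was therefore dense in groups and not in sites per group. Sites ran from 69128506 to 69813116, with none in the first or last 100 kb. The step from 69400001 to 69500000 held 24 of the 53 positions, with 13 sites in replicate 1, 17 in replicate 2 and 6 shared, and 20 of its 24 positions were on the minus strand. The widest gap, 153978 nt, lay from 69222862 to 69376840.

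**Figure D5:**
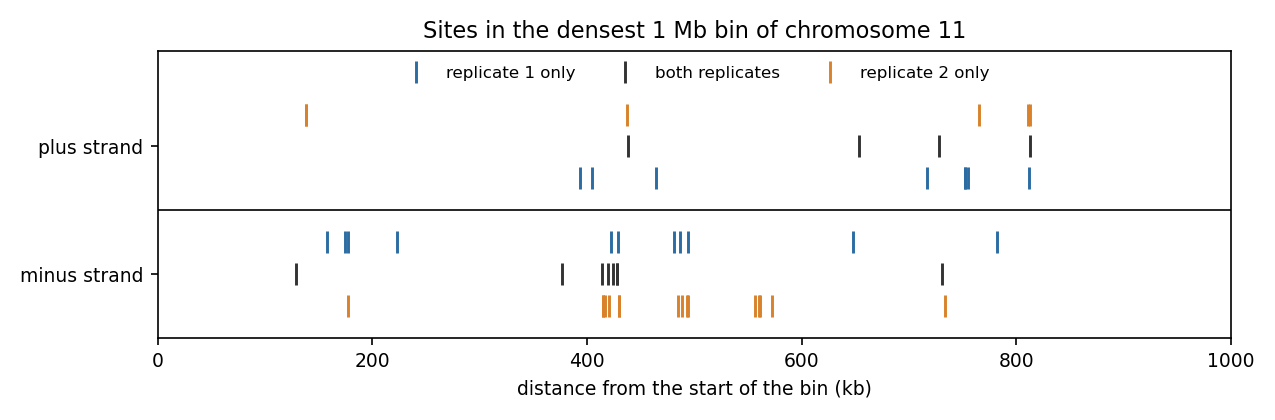
Sites in the bin from 69 to 70 Mb of chromosome 11 by distance from the start of the bin in kb (x axis), plus strand above and minus strand below the line, with separate rows for positions found in replicate 1 only, in both replicates and in replicate 2 only. Minus-strand sites crowd in the 100 kb step that ends at 500 kb and holds 24 of the 53 positions, most closely in a run of 13 positions in its first part.

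Within that step, 13 positions followed each other on the minus strand from 69413605 to 69430287, a stretch of 16682 nt. Replicate 1 listed 7 of them and replicate 2 listed 11, and 5 were shared, the most of any run on 1 strand in the bin. They fell into 7 groups. The group from 69413605 to 69414543 had 3 positions, all in replicate 2, with the first also in replicate 1. The group from 69428008 to 69428528 had 3 positions, all in replicate 1, and the first 2 also in replicate 2. Its first position, 69428008, stood on 2 lines in both lists.

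A second minus-strand run of 12 positions in 9 groups followed, from 69480718 to 69647534. Replicate 1 listed 4 of its positions and replicate 2 listed 8, and 0 were shared. It included the group of 3 from 69493222 to 69494431, with 1 site of replicate 1 and 2 of replicate 2. These neighbouring runs on the same strand, with 13 and 12 positions, thus differed in recurrence, 5 shared against 0, a contrast seen after the fact and not tested. On the plus strand, the largest group of the bin held 4 positions from 69811269 to 69813116, with 2 sites in replicate 1, 3 in replicate 2 and 69813116 in both. Outside these runs, plus-strand sites at 69653120 and 69728269 and minus-strand sites at 69128506, 69376840 and 69730705 were single positions found by both replicates.

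Sites on opposite strands rarely came within 1 kb of each other. Such a neighbour in the same list was present for 10 of 622 sites in replicate 1, or 1.61% (0.876 to 2.93%), and for 13 of 621 in replicate 2, or 2.09% (1.23 to 3.55%). On all other chromosomes the shares were 0.766% (0.580 to 1.01%) and 0.442% (0.308 to 0.634%). Joined over both lists, chromosome 11 had 8 places where a plus group faced a minus group, which took in 2.11% of its groups (1.30 to 3.40%), against 1.10% elsewhere (0.893 to 1.35%), 2.71% on chromosome 17 and 1.88% on chromosome 7. This property was chosen after its values were seen and was not tested. Chromosome 11 also had the most groups per occupied bin, 8.06, whose part in this was not tested.

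Of these 8 places, 5 had the plus-strand sites at the lower coordinates, 2 had the minus-strand sites there and 1 had minus-strand sites on both sides. With plus-strand sites at the lower coordinates, transcripts of the 2 strands would run towards each other. The largest place had 3 plus-strand positions from 4960073 to 4960276 and 5 minus-strand positions from 4960687 to 4960884, which made 15 of the 30 facing pairs. Without it, 0.810% of the replicate 1 sites (0.347 to 1.88%) and 1.46% of the replicate 2 sites (0.769 to 2.75%) had an opposite-strand neighbour. The closest pair lay 75 nt apart, at 3547503 on the plus strand and 3547578 on the minus strand, both in replicate 1 only.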

How the data were processed

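Each of the 2 deposited lists gives intervals of 5 nt with a strand. Name and score are asterisks on every line, so a site has no value of its own. Per the submitters' processing notes, positions refer to mm9, and BWA 0.7.10 and CASAVA were among the tools. Which caller and thresholds made the lists is not given in the sources used here, though they decide what is listed. Lines were merged by chromosome, start and strand, and replicates were matched on the same 3 fields. Bins of 1 Mb take the central base. Groups join same-strand sites with gaps of at most 1 kb. Shares carry 95% Wilson intervals, which, like the 2-sided Fisher's exact tests, assume independent sites and cover counting error only. An adjusted p is Benjamini-Hochberg's.

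Named regions are the 69 to 70 Mb bin and its groups of 3 or more positions, the 5 bins and the 5 groups with most positions, positions on 3 or more lines and the longest stretch without sites; others are marked as chosen after their values were seen. Members, lists and rules were chosen with earlier results of these data known. Gene names and sequences were not used here. Tests ran in SciPy 1.17.1 and statsmodels 0.14.6, tables in pandas 2.3.3 with NumPy 2.4.6 under Python 3.11.15, and figures in matplotlib 3.10.9. The code was tested on simulated lists.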

Additional observations from a re-analysis of the deposited data

How the results depend on the processing

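Of 35 alternative values for chromosome 11, 28 stayed close to the main value (a count by a factor of 1.5, a share by the SD of the replicates) and 7 moved. Counts and shares carry no sign, so none could reverse. Some of the 28 were fixed in advance, so their number is no measure of robustness. Sharing with 1 nt allowed could not change, as 0 same-strand pairs of positions lay 1 to 3 nt apart. The share of sites found in both replicates, 23.2%, became 23.8% with 5 nt allowed and 27.9% with 50 nt allowed. It was 22.4% without the 69 to 70 Mb bin and 21.8% for positions on 1 line. Its limit, an SD of 0.0264 points, is narrow by construction. The same 144 shared positions are divided by 622 and 621 sites, so this SD is no measure of agreement between replicates. For this share, moved means only beyond that SD. The share with a same-strand neighbour, 35.96% within 1 kb, was 28.4% within 500 nt and 42.4% within 2 kb, as wider windows hold more neighbours by construction. Bins with a site of each replicate fell from 82 to 51 with 2 Mb bins, of which there are fewer. With 500 kb bins, of which there are more, they rose to 122, just inside the factor of 1.5 and so counted as close. Leaving out either replicate gave 621 to 622 sites, 31 to 34 sites in the 69 to 70 Mb bin and 5.15 to 6.91% of sites on several lines. With 2 replicates, each share lies within their SD of the mean, so this share could only count as close. With bins moved by 500 kb, chosen after seeing the data, 0 of 1742 bins of the genome passed the adjusted Fisher's exact test. An unadjusted p below 0.05 was found for 35 of the 1742 bins. Of these, 5 were on chromosome 11, the chromosome with the most positions per 1 Mb bin. Against other autosomes only, or without the 69 to 70 Mb bin, 0 of 27 Fisher's exact tests passed after adjustment, and 3 and 4 passed before it, the lowest adjusted p being 0.159. Depth per site is unknown. No paired analysis was possible because the design has a single group.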
